A study of Mus musculus with 52 samples.

Results

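ZFCUMNT and PDCUMNT are mouse embryonic stem (ES) cell lines, the pair whose names both hold CUM, and their RNA was hybridised together on 4 two-colour cDNA arrays. These were the arrays whose titles set PDCUMNT against ZFCUMNT, 4 of 52 in the series, which made 13 such comparisons among 7 lines. ZFCUMNT was in Cy5 and PDCUMNT in Cy3 on arrays 1 and 2, and the dyes were exchanged on arrays 3 and 4. The series description says that a pair of lines came from cumulus donor nuclei and differed in the cloning method used to make the embryos, but it does not name the pair. The labels spell out neither PD, ZF, CUM nor NT. No genotype, treatment, passage or time is given for either line. Each line stands for itself, and nothing in the labels says whether the 4 arrays came from separate cultures. The p-values therefore measure the spread between arrays, which may be technical. In the main fit that spread was taken from all 52 arrays, not from these 4 alone. Organs and a pool of control animals are mentioned in the protocol fields, while the channel labels name an ES line on each side of every array.

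Nuclear transfer puts the nucleus of a somatic cell, such as the cumulus cells that surround the oocyte, into an enucleated egg, and ES lines can be derived from the blastocysts that follow. The donor nucleus has to silence its somatic genes and reopen the pluripotency network, in which Pou5f1, Sox2 and Nanog sit at the centre and Klf4, Esrrb, Zfp42 and the Dppa genes mark the undifferentiated state. Imprinted genes, whose parental methylation marks are not rebuilt after fertilisation, and Nodal signalling, which is fed back on by the Lefty inhibitors, are often examined in such lines.

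Values are log2 ratios, ZFCUMNT minus PDCUMNT, under the reading that the deposited ratio is Cy5 over Cy3. The numerator dye and the log base are not stated in the sources used here. If the ratio runs the other way every sign turns at once, so signs are given as positive or negative, and positive means higher in ZFCUMNT only under that reading. Ratios carry no level, so whether ES markers were present in either line could not be checked, only whether the lines differed in them. Each array measured 17930 to 18542 probes. A feature, which is a gene with its probes averaged or a probe with no gene listed, was tested if at least 3 of the 4 arrays measured it in both dye orientations, which left 15469 features, 8322 of them genes with a symbol.

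The 4 arrays resembled each other little. Arrays 1 and 2, of the same dye orientation, had a Spearman correlation of 0.22 across 13563 features, and arrays 3 and 4, also of the same orientation, had -0.0048. After turning by the dye labels, arrays of opposite orientation had 0.0034 (1 and 3), 0.0083 (2 and 3), -0.13 (1 and 4) and -0.18 (2 and 4). Array 4 therefore ran with arrays 1 and 2 as deposited and against them once turned, so the data do not settle whether the deposited ratios still need turning, and all signs and calls rest on the dye labels. With the ratios as they stand 285 features passed, and 8 of these were among those called here. The spread of a feature over its 4 arrays had a median SD of 0.781 log2 units, against a median size of 0.344 for the fitted ratio.

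**Figure D1:**
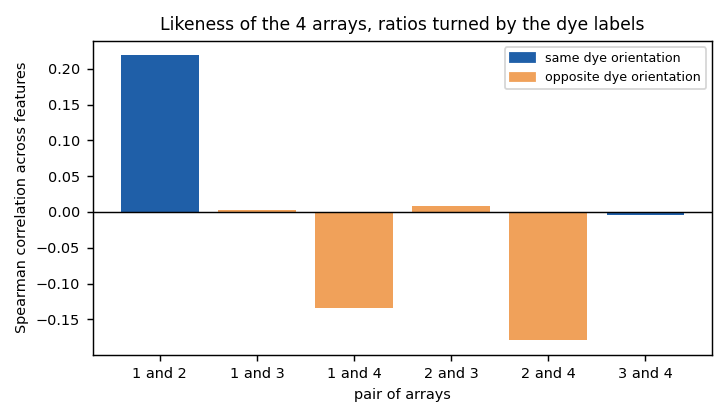
Spearman correlation across features (y axis) for each of the 6 pairs of arrays (x axis), with ratios turned by the dye labels; blue bars are pairs of the same dye orientation and orange bars pairs of opposite orientation. The pair of arrays 1 and 2 is at 0.22, the pairs of array 4 with arrays 1 and 2 are below 0, and the other 3 pairs lie near 0.

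Most of the genes called between ZFCUMNT and PDCUMNT had positive ratios. They included Gng4 (Entrez gene 14706, chromosome 13), a gamma subunit of heterotrimeric G proteins, Bpgm (Entrez gene 12183, chromosome 6), which makes 2,3-bisphosphoglycerate in red cells, and Irs3 (Entrez gene 16369, chromosome 5), an adaptor of the insulin receptor. Dand5 (Entrez gene 23863, chromosome 8), which is secreted and blocks Nodal, and Xiap (Entrez gene 11798, chromosome X), which blocks caspases, were negative. Both lay close to the threshold (adjusted p = 0.046 for each in limma). In the joint limma fit of all 13 comparisons 118 features (0.763% of those tested) had a Benjamini-Hochberg adjusted p of up to 0.05, 91 positive (0.588%) and 27 negative (0.175%). A symbol was listed for 60 of them, 52 positive and 8 negative. The median of all features was 0.11, not 0, and with each array's median subtracted 68 features passed (0.44%), 37 positive and 31 negative, of which 64 were among the 118. Subtracting the medians itself moves the balance of signs, so the split between positive and negative calls depends on where 0 is set.

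The number of calls depended on the model. Fitted on its own 4 arrays the comparison gave 0 calls in limma. Of 15469 features 790 (5.11%) had an unadjusted p under 0.05, against 1825 (11.8%) in the joint fit. The median absolute deviation of the ratios was 0.6, 0.678, 0.577 and 0.512 on arrays 1 to 4. On the arrays of either line against HM-1 it was 0.4445 to 0.521. The joint fit uses 1 spread per feature for all arrays. With arrays scaled to equal spread 12 features passed, and with array weights 14. All measured arrays had the same sign for 92 of the 118 features, as they did for 15.1% of all features tested. The 118 were picked by the fitted ratio of these same arrays, so the higher share is largely built in. Of the 118, 39 were measured on 3 arrays (33.1%, against 24.9% of the tested features). Without array 4 the count was 270, of which 63 were among the 118. Without array 3 it was 84, of which 48 were among the 118.

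A group of 11 features, 7 of them with a symbol and all of them positive, also passed with array medians subtracted, with arrays scaled to equal spread, with array weights, without the dye term and with an array number block. None of the 11 passed when the comparison was fitted alone (adjusted p = 0.90 for each) or with the ratios as they stand, where 5 of them were negative, and 3 (Bpgm, Fbxw17 and Gng4) passed with 1 effect per line. With top values kept Bpgm did not pass (adjusted p = 0.10). This group was picked after the values were seen. Gng4 was at 1.30, 1.65, 2.44 and 2.27 on arrays 1 to 4, all clearly above 0 and close to each other. Its fitted ratio was 1.91 ± 0.28 (SE, n = 4 arrays for the ratio, adjusted p = 2.2e-04). Here and below the SE draws on the spread within all 52 arrays of the joint fit, not on these 4 alone. U2af1l4, a relative of the small U2AF splicing factor, was at 0.96, 1.03, 2.09 and 2.25, with a fitted ratio of 1.58 ± 0.25 (adjusted p = 4.4e-04). Its 2 arrays with ZFCUMNT in Cy5 were the lower ones. Trim25, a ubiquitin ligase of the antiviral RIG-I pathway, was at 1.13, 2.12, 0.62 and 1.10, with a fitted ratio of 1.24 ± 0.21 (adjusted p = 0.0018). U2af1l4 and Trim25 lie outside the rule for named genes and were chosen after their values were seen.

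Fbxw17, an F-box and WD40 repeat protein, had the largest ratio of all called features once turned by the dye labels, with 6.46, 2.37 and 4.08 on arrays 1, 3 and 4. Array 2 did not measure it. With the ratios as they stand Fbxw17 was at 0.04 (adjusted p = 0.99). Its fitted ratio was 4.47 ± 0.68 (adjusted p = 4.4e-04). Irs3 was at 1.78, 2.00 and 3.10 on arrays 1, 2 and 4, and Nupr1l, a relative of the stress-induced regulator Nupr1, was at 2.25, 0.70 and 4.49 on arrays 1, 3 and 4. Their fitted ratios were 2.17 ± 0.39 and 2.52 ± 0.52. Bpgm, averaged over 2 probes, was at 4.97, 1.77, 1.89 and 1.69, so in this average array 1 stood well above the other 3. The fitted ratio was 2.58 ± 0.41 (adjusted p = 4.4e-04). Its probes did not run together: on array 4 one was at 3.86 and the other at -0.48. The first was read on arrays 3 and 4 only. The other, at 4.97, 1.77, 3.46 and -0.48, was tested singly and did not pass (2.43 ± 0.71, adjusted p = 0.099).

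Among the other positive genes named by size, single arrays stood far from the rest in some. Arid3a, an AT-rich DNA binding factor, was at 1.02, 8.41 and 2.91 on arrays 1, 2 and 4, so that array 2 carried most of its fitted ratio of 3.92 ± 0.77. Mios, a subunit of the GATOR2 complex that relays amino acid supply to mTORC1, was at 0.08, 1.80, 5.62 and 1.27, and array 3 carried its ratio of 2.19 ± 0.51. Lgals8, a galectin that binds damaged vesicles, was at 4.34, 1.80, 0.50 and 2.10, with a ratio of 2.18 ± 0.55. Mllt1, a chromatin reader linked to transcript elongation, was at 2.23, 0.81, 2.80 and 1.15, with a ratio of 1.75 ± 0.36. Mme, the cell surface peptidase neprilysin, was at 2.38, 1.06, 4.00 and 0.14, with a ratio of 1.90 ± 0.39. It had 2 probes, and both were read on array 4 only. Arrays 1 and 2 came from 1 probe, which did not pass singly (0.98 ± 0.36, adjusted p = 0.20), and array 3 from the other. Rnf112 (2.73 ± 0.59), Sh2d2a (2.52 ± 0.56), Wdr54 (2.21 ± 0.49), the cochlear matrix gene Coch (1.98 ± 0.43) and the kinesin Kif1b (1.86 ± 0.46) completed the 15 largest. Each of these 15 genes had 1 sign on every measured array, as the rule required.

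Among the negative calls 5 genes had 1 sign on every measured array. Spsb2, a SOCS box adaptor of ubiquitin ligases, was at -4.59, -1.29, -1.16 and -0.64, with array 1 far below the others. Its fitted ratio was -1.92 ± 0.46 (adjusted p = 0.042). Xiap was at -1.86, -0.66 and -2.41 on arrays 1, 2 and 4, with a ratio of -1.62 ± 0.41 (adjusted p = 0.046). Frmd8, which stabilises the sheddase ADAM17 through iRhoms, was at -1.29, -3.20, -1.44 and -0.20, with a ratio of -1.53 ± 0.36. Hils1, a linker histone of spermatids, was at -2.60, -0.76, -1.26 and -0.90, with a ratio of -1.38 ± 0.35. Dand5 was at -1.80, -1.02, -0.02 and -1.56, so array 3 was near 0, and its ratio was -1.10 ± 0.27 (adjusted p = 0.046).

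**Figure D2:**
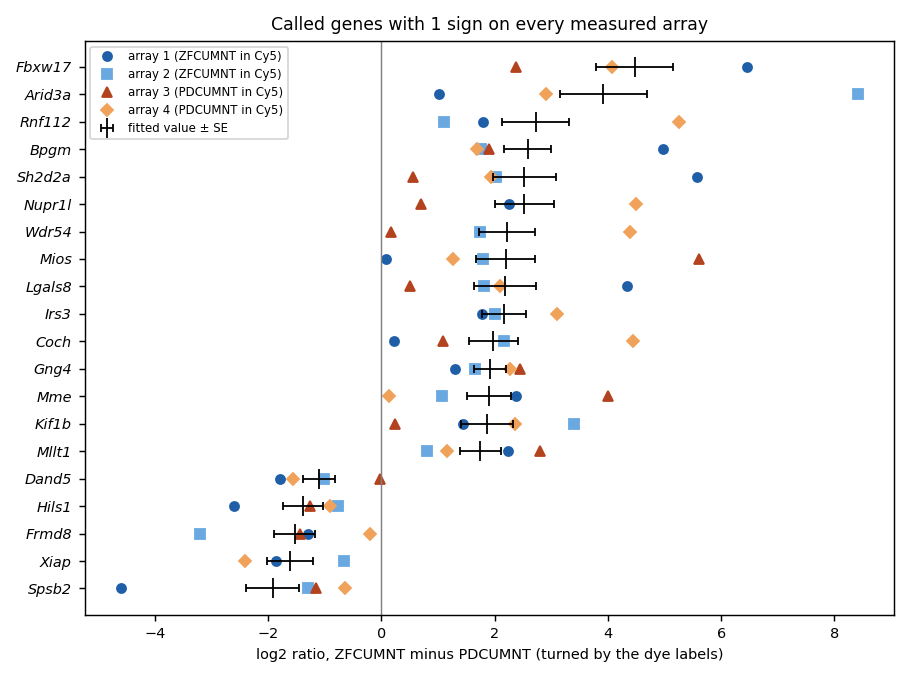
Log2 ratio, ZFCUMNT minus PDCUMNT (x axis), on each array (coloured symbols, blue shades with ZFCUMNT in Cy5, red and orange with PDCUMNT in Cy5) for the 20 called genes with 1 sign on every measured array that the size rule names (rows); black ticks with bars are fitted values ± SE. Gng4 has its arrays within 1.30 to 2.44, while array 2 of Arid3a reaches 8.41 and array 1 of Spsb2 lies at -4.59.

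Several called genes were measured by more than 1 probe. The gene's ratio averages these probes and the genes were picked for its size, so probes on the same side are partly built in. Of 15 such genes 12 had the fitted ratio of every probe on the side of the gene's own ratio and 3 had a probe on the other side. In 11 of the 15 no probe passed when tested singly. Epc1, a subunit of the NuA4/TIP60 acetyltransferase complex, had 3 probes at 0.20, 1.64 and 2.02, and the gene was at 1.73, 1.07, 2.39 and 1.33 on the 4 arrays with a fitted ratio of 1.63 ± 0.28 (adjusted p = 0.0018). Its 0.20 came from a probe that 1 array measured. Its other probes were far apart, at 4.70 and 0.07 on array 3 and at -0.21 and 2.87 on array 4, and neither passed singly (adjusted p = 0.074 and adjusted p = 0.083). Sh2d2a, a T cell adaptor, had 3 probes with fitted ratios of 0.82, 2.17 and 2.51. The 0.82 also came from 1 array, where the probe read -0.35 before the dye term was taken out. Eid1, an inhibitor of the p300 acetyltransferase, had probes at 2.37, 0.75 and -0.63, so its ratio of 1.10 ± 0.26 joined opposite readings. Pdpk1, the kinase that activates AKT, had probes at 1.98, 0.57 and -0.12, and its arrays read 0.55, 3.40, 0.05 and 0.15, with array 2 far above the rest. Its fitted ratio was 1.04 ± 0.25 (adjusted p = 0.042).

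Among 21 gene lists 584 different genes were tested and 9 were called, or 1.54%, against 0.763% of all features. Of the 8322 tested genes with a symbol 60 were called. List members were chosen with earlier results of these data known, so these shares do not test the lists. The 9 were in 6 lists, and the other 15 lists had no called member. The list with most called members was that of interferon response and antigen presentation genes, with 3 of 32 positive and none negative. Psme1, the interferon-induced alpha subunit of the PA28 proteasome activator, was at 1.54, 0.25, 0.90 and 1.91, with a ratio of 1.15 ± 0.23 (adjusted p = 0.010). Ifi35, an interferon-induced protein, was at 2.10, 0.90, 1.04 and 0.51, with a ratio of 1.14 ± 0.26 (adjusted p = 0.027). Ifngr1, the ligand-binding chain of the interferon gamma receptor, was at 3.90, 0.73, 1.11 and -0.22, so its ratio of 1.38 ± 0.35 rested mostly on array 1 (adjusted p = 0.046). Ifi35 and Ifngr1 no longer passed once array medians were subtracted, at adjusted p = 0.052 and adjusted p = 0.084. The list as a whole had a median of 0.05, below the 0.11 of all features, with 19 members positive and 13 negative, and its median was -0.15 on array 4.

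In the list of insulin and growth factor signalling Irs3 and Mios were called, both positive, among 27 genes with a median of 0.10. Its next member by p was Foxo3, a transcription factor that insulin signalling keeps out of the nucleus, at -1.27 ± 0.47 (adjusted p = 0.20). Bpgm was the called member of 21 glycolysis genes, whose median was 0.27. Gapdh (0.91 ± 0.32, adjusted p = 0.18) and Hk1 (0.99 ± 0.36, adjusted p = 0.18) did not pass, and Gapdh read 3.04 on array 3 but -0.52 on array 4. Xiap was the called member of 25 apoptosis regulators, with a list median of 0.34, the highest of the 21. In that list Bcl2l11, a BH3-only trigger of apoptosis, was at -0.89 ± 0.30 and the death receptor adaptor Fadd at -1.43 ± 0.52, and neither passed. Hils1 was the called member of 15 histone genes (median 0.16), of which H2az1 was at -0.81 ± 0.34 and H4c9 at 0.43 ± 0.30.

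The pluripotency list had no called member among 26 genes, with a median of -0.01, 12 positive and 14 negative. Pou5f1, the core pluripotency factor, was at -0.10, 0.33, -0.38 and 0.38, with a ratio of 0.06 ± 0.22 (adjusted p = 0.98). Sox2 had a ratio of 0.02 ± 0.45, Dppa3 -0.02 ± 0.35 and Esrrb 0.03 ± 0.47. The arrays of Esrrb ran from -1.29 to 2.37, so a ratio near 0 there hid a wide spread. Klf4, which had 1 sign on all arrays, was at -0.89, -0.46, -0.62 and -0.35, with a ratio of -0.58 ± 0.18 (adjusted p = 0.12). Klf5, its relative, was at -0.87 ± 0.36 (adjusted p = 0.29), and Sall4 at -0.44 ± 0.22 (adjusted p = 0.43). Dppa5a, which binds RNA in undifferentiated cells, read 0.57 ± 0.20 (adjusted p = 0.17), Sall1 at -0.33 ± 0.41 and Zfp42 at -0.17 ± 0.47. Nanog, Nodal and Cer1 were not analysed here.

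**Figure D3:**
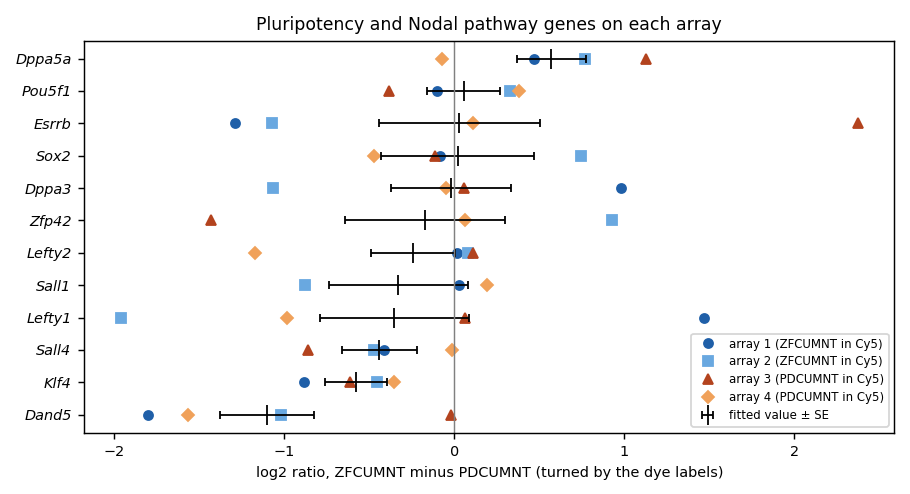
Log2 ratio, ZFCUMNT minus PDCUMNT (x axis), of 12 pluripotency and Nodal pathway genes (rows) on each array (coloured symbols), with the fitted value ± SE (black). Dand5 is the 1 gene of the panel that passed; Klf4 and Sall4 have all 4 arrays below 0 and did not pass.

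The ligands, receptors and inhibitors of the Nodal, BMP and TGF-beta pathways gave 1 call, Dand5, among 29 genes, with a median of 0.06. The Lefty genes, targets and inhibitors of Nodal, were at -0.35 ± 0.44 (Lefty1) and -0.24 ± 0.25 (Lefty2). Lefty1 ran from -1.96 to 1.47 over the arrays. Id3, a target of BMP signalling, read 1.99, 3.69, -0.89 and 1.04, and its ratio of 1.46 ± 0.38 lay just outside the threshold (adjusted p = 0.0502). The type II receptor Tgfbr2 was at 1.05 ± 0.36 (adjusted p = 0.16).

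Markers of other cell types gave no call. Of 31 fibroblast and feeder markers 18 were positive and 13 negative, with a median of 0.17 and medians between -0.09 and 0.28 on single arrays. Col5a2 was at 3.42, 4.03, 0.61 and -0.13, high on both arrays with ZFCUMNT in Cy5 and low on the others, with a ratio of 1.98 ± 0.54 (adjusted p = 0.062). Fbln2 was at 0.52 ± 0.18 and S100a6 at -0.95 ± 0.38. The 10 measured genes of cumulus and granulosa cells, the donor type named in the series description, had a median of 0.11, equal to that of all features. They ran from -0.16 (Inhba) to 0.70 (Pgr, the progesterone receptor). Their medians on arrays 1 to 4 were 0.263, 0.179, 0.2655 and 0.375, beside 0.158, 0.126, 0.2005 and -0.053 for all features. Nr5a1 was at 0.34 ± 0.31 and the steroid enzyme Hsd3b1 at 0.28 ± 0.30. Among 13 endoderm markers (median 0.14) the basement membrane collagens Col4a1 and Col4a2 were at 0.88 ± 0.32 and 1.17 ± 0.50, and Ttr was at -0.30 ± 0.25. Among 9 trophectoderm markers and simple keratins (median 0.28) Krt18 was at -1.10 ± 0.47, with -4.23 on array 3, while Mmp9 was at 0.58 ± 0.28 and Krt7 at 0.68 ± 0.57. The 7 primed and early lineage markers had medians between -0.61 and 1.03 on single arrays, and Crabp1, Nes and Hoxb1 were at -0.40 ± 0.28, 0.63 ± 0.53 and 0.43 ± 0.46.

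Imprinted genes and silencing factors gave no call either. Of 28 imprinted genes 16 were positive and 12 negative, with a median of 0.06. Impact, expressed from the paternal allele, was at 2.94, 0.39 and 3.66 on arrays 2, 3 and 4 (2.41 ± 0.68, adjusted p = 0.094). Nnat, another paternally expressed gene, was at 1.93, 1.28, 0.87 and 0.16, above 0 on every array, with a ratio of 1.06 ± 0.32 (adjusted p = 0.11). Dio3 was at 0.75 ± 0.29. The 30 DNA methylation and chromatin factors had a median of -0.02, with the maintenance methylation cofactor Uhrf1 at 0.79 ± 0.39 and the deacetylase Hdac3 at -0.43 ± 0.22. X-linked genes, of which 210 were tested, had a median of 0.10 against 0.11 for 8110 autosomal genes, and 1 of them, Xiap, was called.

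The broad housekeeping lists had no called member, and those of proteasome subunits and cholesterol synthesis had the lowest medians of the 21 lists. Cytosolic ribosomal protein genes had a median of 0.01 (60 genes), mitochondrial ribosomal protein genes 0.07 (57), respiratory chain and ATP synthase genes -0.02 (66), proteasome subunits -0.09 (32), cell cycle genes 0.09 (38), chaperones 0.12 (33) and cholesterol synthesis genes -0.09 (12), beside 0.11 for all features. Their members with the smallest p included Psma4 (0.85 ± 0.23, adjusted p = 0.066), Psmb8 (1.40 ± 0.41), Psmd12 (1.12 ± 0.37), Mrpl33 (1.47 ± 0.42), Mrpl52 (1.25 ± 0.36) and Mrps30 (0.70 ± 0.28). In the respiratory chain these were Cox6a1 (0.69 ± 0.21), Ndufb3 (-0.60 ± 0.21) and Cox6b2 (1.17 ± 0.53), and among ribosomal proteins Rpl7l1 (2.04 ± 0.77), Rpl28 (0.48 ± 0.21) and Rpl26 (0.51 ± 0.23). Among cell cycle genes Cdc25b was at -1.52 ± 0.50, with -5.35 on array 2, Pcna at 0.69 ± 0.23 and Mcm4 at -0.998 ± 0.42. The chaperone genes Cryab and Bag3 were at -1.15 ± 0.37 and 0.55 ± 0.27, the stress factor Ddit3 at 0.79 ± 0.35, and the cholesterol genes Pmvk, Msmo1 and Scap at 0.65 ± 0.24, -0.49 ± 0.26 and -0.37 ± 0.25. Of the 21 lists 3 had medians of 1 sign on all 4 arrays. They were the cumulus and granulosa cell and cell cycle lists, both positive, and the DNA methylation and chromatin list, negative. Of single features tested 15.1% had 1 sign on every measured array. The cell cycle medians were 0.124, 0.094, 0.0845 and 0.011 on arrays 1 to 4. Those of all features were 0.158, 0.126, 0.2005 and -0.053, so the cell cycle list lay below them on arrays 1 to 3.

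**Figure D4:**
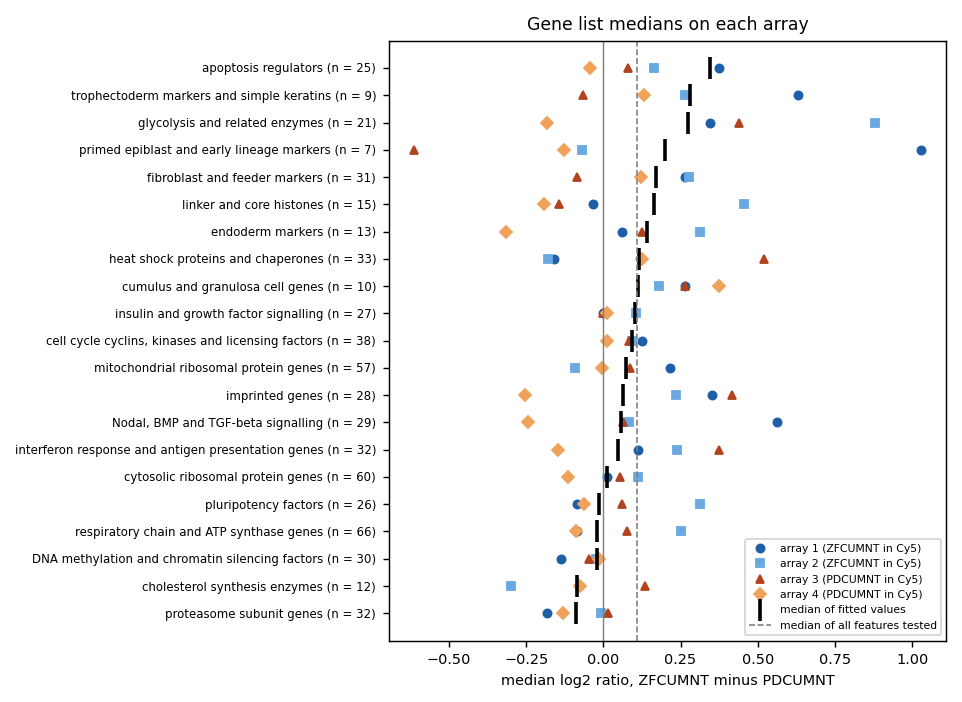
Median log2 ratio, ZFCUMNT minus PDCUMNT (x axis), of each gene list (rows, with the number of genes tested) on each array (coloured symbols) and in the fit (black ticks); the dashed line is the median of all features, 0.11. List medians of the fit lie between -0.09 and 0.34, and for most lists the arrays fall on both sides of 0.

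The same difference could be read on other arrays, since both lines were also set against HM-1, an ES line used for gene targeting, on 4 arrays each. The value through HM-1 is ZFCUMNT minus HM-1 less PDCUMNT minus HM-1, and it shares the lines but no array with the direct value. No feature passed by this route in limma, of 15197 tested, with 758 at an unadjusted p under 0.05 (4.99%). It was less precise, with a median SE of 0.586 against 0.441. Of the 118 called features 116 could be read through HM-1, and 59 of these (50.9%) had the same sign there, against 51.8% of all 14281 features read by both routes. The positive calls had a median of 1.58 directly and 0.03 through HM-1, and the negative calls -1.62 and 0.07. The calls were picked by their direct value, which the value through HM-1 did not enter. No feature passed in the test of the direct value against that through HM-1 (842 of 14281, or 5.9%, at an unadjusted p under 0.05). Of the 116 called features read by both routes 87 had an unadjusted p under 0.05 in that test. The direct value that picked them also enters the test, so small p-values there are partly built in.

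Single genes varied in how they read by both routes, and those given here were chosen after their values were seen. Lgals8 was at 2.18 ± 0.55 directly and -1.56 ± 0.77 through HM-1, and Mllt1 at 1.75 ± 0.36 and -0.47 ± 0.51. Hils1 was at -1.38 ± 0.35 and 0.90 ± 0.54, so each of these called genes had opposite signs. Gng4 was at 1.91 ± 0.28 directly and 0.39 ± 0.40 through HM-1, Trim25 at 1.24 ± 0.21 and 0.03 ± 0.30, and U2af1l4 at 1.58 ± 0.25 and -0.41 ± 0.36. Fbxw17 was at 1.42 ± 0.83 through HM-1 and Bpgm at 0.69 ± 0.58, the same sign as their direct values but within 2 SE of 0. Of the 116 called features 4 (3.45%) had an unadjusted p under 0.05 through HM-1, against 4.99% of all features tested by that route, and 3 of these had the same sign by both routes. Epc1 was among the 3, at 0.89 ± 0.40, where its direct value was 1.63 ± 0.28. Nnat was at 1.06 ± 0.32 directly and 1.52 ± 0.46 through HM-1, and passed by neither route in limma (adjusted p = 0.11 and adjusted p = 0.50). Against HM-1 alone, which the 2 comparisons share, Nnat was at 1.37 in ZFCUMNT and -0.16 in PDCUMNT, and neither value passed. Lefty2 was at -2.51 in ZFCUMNT and -1.91 in PDCUMNT against HM-1, and Zfp42 at -2.44 and -2.53, values that passed in both lines. Pou5f1 was at 0.30 in ZFCUMNT and 0.87 in PDCUMNT against HM-1, and the respiratory chain subunit Ndufb3 at 0.14 and 1.18. Both passed in PDCUMNT (adjusted p = 0.031 and adjusted p = 0.0016) and not in ZFCUMNT. Of all features 180 of 15842 (1.14%) passed in PDCUMNT against HM-1, and 16 of 15906 (0.101%) in ZFCUMNT. The difference between the lines through HM-1 was -0.57 ± 0.31 for Pou5f1 and -1.04 ± 0.30 for Ndufb3. Neither difference passed in limma (adjusted p = 0.999 and adjusted p = 0.49). None of these 4 genes was called on the direct arrays.

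**Figure D5:**
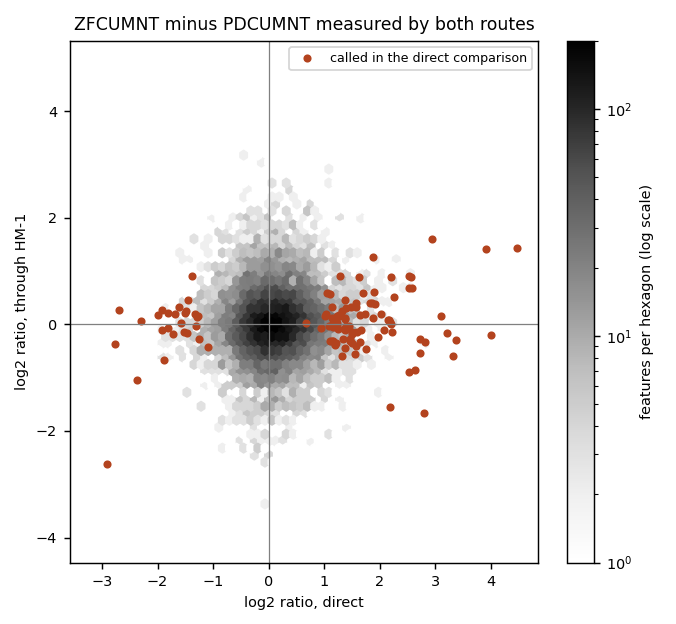
Log2 ratio of ZFCUMNT minus PDCUMNT on the 4 direct arrays (x axis) and through HM-1 on 8 other arrays (y axis) for 14281 features (grey hexagons, shaded by number on a log scale), with the features called in the direct comparison as red points. The called points lie above and below 0 on the y axis, 59 of 116 with the same sign as on the x axis.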

How the data were processed

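Each array has a column of ratios between its 2 channels in the deposited table, taken here as log2 from values on both sides of 0. Per the labels, RNA was reverse transcribed and labelled with Cy3 or Cy5. Scanner, background correction, normalization, log base and numerator dye are not given in the sources used here. Of 20794 probes 12771 had 1 symbol in the platform annotation, 8023 had none and none had several, which gave 9030 genes and 17053 features. Each array's single constant top value, above 12 and shared by 49 to 100 probes of these arrays, was treated as not measured. Ratios were turned by the dye labels and probes of a symbol averaged. Array medians as deposited were 0.161, 0.123, -0.209 and 0.059 on arrays 1 to 4, and no centring was applied in the main setting. All 52 arrays were fitted in limma 3.58.1 (R 4.3.3; lmFit, eBayes) with a coefficient for each of the 13 comparisons plus a term for dye, and p-values were adjusted by Benjamini-Hochberg over all features of a comparison, with a threshold of 0.05. Alternatives changed the dye term, centring, scaling, weights, top values, probes, replicate block, model and arrays. The fit was tested on simulated data with independent normal noise of each feature's spread over all 52 arrays. It called 11 of 100 features changed by a log2 of 1 and 60 of 100 changed by 2, and 5 unchanged ones. A gene without a call may therefore still differ between the lines. The number of arrays limits the precision.

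Named genes were the 15 largest positive and up to 15 largest negative called ratios of 1 sign on every measured array, called members of the lists, the 3 members of each list with the smallest p, a fixed panel of pluripotency and Nodal genes, genes called by both routes (none) and called genes with 3 or more probes. The comparison, lists and members were chosen with earlier results of these data known.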

Additional observations from a re-analysis of the deposited data

Results flagged for a closer look

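Of the 91 named genes and list medians read on 4 arrays, 10 had 1 array set apart from the other 3 by more than Dixon's 95% critical value for 4 samples, which chance gives for about 1 in 20. Bpgm, averaged over its probes, read 4.97 on array 1, against 1.69 to 1.89 on the others. Its 1 probe read on all 4 arrays was at 4.97, 1.77, 3.46 and -0.48, where array 1 was not as far from the rest. Spsb2 read -4.59 on array 1, against -1.29 to -0.64. Pdpk1 read 3.40 on array 2, against 0.05 to 0.55. Cryab read -4.57 on array 3, against -0.33 to 0.37. Psma4 read 2.41 on array 3, against 0.26 to 0.44. Bag3 read 1.47 on array 1, against 0.24 to 0.26. Pmvk read 1.38 on array 4, against 0.33 to 0.50. Mrps30 read -0.23 on array 1, against 0.88 to 1.09. Lefty2 read -1.17 on array 4, against 0.02 to 0.11. The median of the insulin and growth factor signalling list was 0.106 on array 2, against -0.001 to 0.01 on the other arrays.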

How the results depend on the processing

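The count of 118 called features was 34 without the dye term (26 positive, 8 negative), 68 with array medians subtracted, 12 with arrays scaled to equal spread, 14 with array weights, 0 when fitted alone, 182 with top values kept, 41 over features measured on all arrays, 285 with ratios as they stand, 14 with 1 effect per line and 16 at an adjusted p of 0.01. It was 88 with probes tested singly and 115 with robust eBayes. Leaving out 1 array of the comparison gave 84 to 270 calls, 270 without array 4 (194 positive, 76 negative). Of these calls only 48 to 63 were among the 118, with 12283 to 12901 features tested. With 1 effect per line 9 of the 14 were among the 118. With a replicate block on the array number the count was 87, of which 86 were among the 118. Correlations gave no sign that the array numbers pair arrays, though they cannot exclude it. Of 8 same-numbered pairs with the HM-1 comparisons 2 correlated over 0.1, from 0.032 to 0.12, and 2 of 8 correlated best with their own number. Through HM-1 the count of 0 was 2 with array weights, 23 with ratios as they stand and 0 to 2 when 1 array was left out, the 2 without array 1 of PDCUMNT against HM-1. The test of direct against indirect values had 1 call with probes tested singly, 4 with ratios as they stand and 0 to 0 when 1 array was left out.

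Of the 26 called named genes 20 passed with array medians subtracted, 22 with the replicate block, 5 with array weights, 5 with scaled arrays, 6 with 1 effect per line and 0 when fitted alone. With ratios as they stand 10 had the opposite sign: Rnf112 at -0.87, Nupr1l at -0.95, Wdr54 at -0.88, Mios at -1.25, Coch at -0.79, Gng4 at -0.44, Mme at -0.17, Mllt1 at -0.23, Psme1 at -0.25 and Epc1 at -0.23. Single probes of Eid1 (-0.63) and Pdpk1 (-0.12) did too. The cause of these changes was not tested. Of 126 recomputed list medians 100 moved by less than the SD over arrays. The array weights were 0.638, 0.617, 0.296 and 0.682 for arrays 1 to 4, lowest for array 3.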

Other observations

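Few constant top values were shared between arrays. Of 292 probes at the top value on 1 or more of the 4 arrays 286 were there on 1 array and 6 on 2 or more. Of these 6, 5 were there on arrays of both dye orientations, 1 on both arrays with ZFCUMNT in Cy5 and 0 on both with PDCUMNT in Cy5. Each array was also set against the value through HM-1 across features, and the Spearman correlations were 0.080, 0.026, 0.0031 and 0.0058 for arrays 1 to 4.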
